A study of Mus musculus with 6 samples.

Results

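The caspase family was followed here through 7 genes, Casp1, Casp2, Casp4, Casp6, Casp8, Casp9 and Casp12, chosen by their gene symbols in the expression tables. They are 7 of the 47719 gene identifiers in the tables, and each symbol belonged to 1 identifier. RNA came from the prostates of 6 mice of the strain B6.129S4-Trp53tm3.1Tyj/J, 2 of each genotype, namely wildtype mice 39 and 41 (Trp53+/+), heterozygous mice 37 and 40 (Trp53R270H/+) and homozygous mice 47 and 49 (Trp53R270H/R270H), where the numbers are those of the animals. R270H is a missense change in the DNA binding domain of p53. Every mouse, wildtype mice included, was irradiated over the whole body with 5 Gy at an age near 3 months and was dissected 6 h after this dose, so the comparison is between genotypes after irradiation and holds no unirradiated mouse. The tissue was whole prostate, in which fewer cells of a type and less RNA per cell cannot be told apart.

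Caspases are cysteine proteases that are made as inactive precursors and cut their substrates after aspartate residues. Initiator caspases (Casp2, Casp8, Casp9) are activated on protein platforms. Executioner caspases such as Casp6 act later and take the cell apart. Inflammatory caspases (Casp1, Casp4, Casp12) act in inflammasome signalling, pyroptosis and, for Casp12, at the endoplasmic reticulum. Since activity is set by cleavage of the precursor protein, an RNA level gives the supply of precursor message and not caspase activity. Wildtype p53 is known to raise the transcription of several activators of the caspase cascade after irradiation, and the comparison asks whether the messages of the caspases themselves differed between genotypes.

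None of the 6 caspases tested in limma passed between genotypes. Of the 7 genes, 6 had a mean of at least 1 FPKM, a fragment count scaled by gene length and library size, over the 6 mice and were tested on log2(FPKM + 0.1) together with all 13818 genes that reached this level. Casp1 stayed below it and is described by its values. In limma's moderated F-test over the 3 genotypes, 0 of the 6 had a Benjamini-Hochberg adjusted p-value under 0.05 (adjusted p between 0.461 and 0.918), where 0.101% of all tested genes did, and 0 of the 6 had an unadjusted p-value under 0.05, where 11.5% of all tested genes did. An F-test on each gene alone also gave 0 members at either level, Casp1 included. Casp6, an executioner, had the largest difference, with a fitted homozygous level 0.554 times that of wildtype mice on the log2(FPKM + 0.1) scale, and most of it came from 1 of the 2 homozygous mice. Casp8 and Casp9, the initiators of the death receptor and mitochondrial routes, lay within 1.17-fold and 1.27-fold of their own lowest value over all 6 mice.

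The 7 genes lie at 5 places in GRCm38, all on the plus strand. Casp8 lies on chromosome 1 (58795374 to 58847503), Casp6 on chromosome 3 (129901425 to 129914103), Casp9 on chromosome 4 (141793612 to 141815976) and Casp2 on chromosome 6 (42264985 to 42282508). The inflammatory genes stand side by side on chromosome 9, Casp1 (5298517 to 5307265), Casp4 (5308828 to 5336783) and Casp12 (5345430 to 5373032), with gaps of 1562 and 8646 bases and with no other annotated gene in the 74516 bases they span. The 3' end of Casp9 shares 1015 bases of its span with Cela2a and Ctrc, genes of digestive enzymes on the opposite strand, both listed at 0 in every mouse. Casp2 spans a small nucleolar RNA gene listed at 0 in every mouse, and Casp8 spans Gm37760, which had between 0.269 and 0.599 FPKM.

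The RefSeq windows from 250 bases before to 50 bases after the start site (GRCm38.p6) were matched for all 7 genes, with 2 windows for Casp4. The windows of Casp6 and Casp1 are printed because these are the 2 members in which all 4 mutant mice lay on one side of both wildtype mice. Of the 26087 genes above 0 in any mouse, 9.59% had all 4 mutant mice higher, as Casp1 did. The share with all 4 lower, as for Casp6, was not counted. Under a looser condition, 28.7% of all tested genes had both homozygous mice below both wildtype mice. Capitals mark each CG pair, 5′ to 3′ on the plus strand, for Casp6 at chr3:129901165-129901464 and for Casp1 at chr9:5298267-5298566.
Casp6: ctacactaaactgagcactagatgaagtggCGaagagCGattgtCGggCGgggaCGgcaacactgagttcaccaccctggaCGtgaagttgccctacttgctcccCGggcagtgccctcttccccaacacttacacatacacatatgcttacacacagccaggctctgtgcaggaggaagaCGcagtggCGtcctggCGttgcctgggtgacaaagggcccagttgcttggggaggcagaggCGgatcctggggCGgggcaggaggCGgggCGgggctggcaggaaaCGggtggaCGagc
Casp1: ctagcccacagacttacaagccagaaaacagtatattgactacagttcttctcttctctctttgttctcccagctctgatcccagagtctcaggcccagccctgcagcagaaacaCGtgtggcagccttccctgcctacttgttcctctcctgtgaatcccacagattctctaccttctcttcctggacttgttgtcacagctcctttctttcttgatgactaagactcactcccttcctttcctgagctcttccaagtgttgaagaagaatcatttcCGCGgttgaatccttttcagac
Casp6 holds 16 CG pairs, and the windows of Casp2 and Casp9 hold 26 and 28. Casp1 and Casp12 hold 3 each, Casp4 5 in either window and Casp8 5, against a median of 7 over 32851 such windows. The Casp8 window, chr1:58802252-58802551, lies inside the gene span given above and not at its first base, so it describes an internal start site. The p53 half-site (10 bases, read alike on both strands) has no match in any of the 8 windows, and 8.36% of all windows hold one. The core of interferon-responsive elements, GAAA repeated after any 2 bases, was searched on both strands and likewise had no match, with 3.44% of all windows holding one. These counts say only that the letters are not in these 300 bases.

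**Figure D1:**
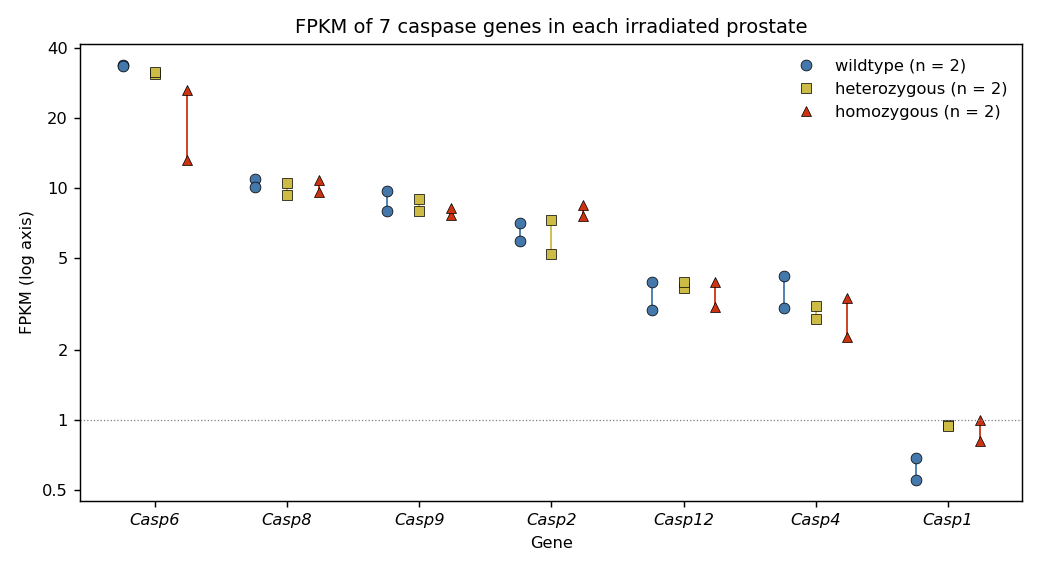
FPKM on a log axis for the 7 caspase genes, ordered by their mean level, with 1 symbol per mouse and a line joining the 2 mice of a genotype (n = 2 each). The dotted line marks the mean of 1 FPKM needed for the test. Casp6 stands highest and Casp1 lowest, and the widest pair is that of homozygous mice for Casp6, at 13.2 and 26.4 FPKM.

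FPKM is scaled by gene length, so levels can be compared between genes. By mean FPKM over the 6 mice, Casp6 stood at 28.2, Casp8 at 10.2, Casp9 at 8.41, Casp2 at 6.91, Casp12 at 3.60, Casp4 at 3.12 and Casp1 at 0.827. The executioner thus had the most message and the inflammatory group the least. Casp6 was above Casp8, Casp2 above Casp12 and Casp4 above Casp1 in 6 of 6 mice with no overlap of their ranges. The ranges over the mice overlapped for the other neighbours, although within a mouse Casp8 was above Casp9 in 6 of 6, Casp9 above Casp2 in 5 of 6 and Casp12 above Casp4 in 4 of 6. Among all tested genes, 20.3% had a higher mean FPKM than Casp6 and 78.8% a higher one than Casp4.

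Casp6 cleaves nuclear lamins and other structural proteins. Wildtype mice had 33.9 and 33.5 FPKM, heterozygous mice 30.9 and 31.6, and the values were 13.2 in homozygous mouse 47 and 26.4 in homozygous mouse 49. The values were ordered by the number of mutant alleles without overlap, and Casp6 was the only 1 of the 6 tested members so ordered. Of all tested genes, 8.83% were ordered by allele number in either direction and 4.98% in the falling direction of Casp6. The mean FPKM was 33.7 ± 0.307 (SD, n = 2) for wildtype, 31.3 ± 0.501 (SD, n = 2) for heterozygous and 19.8 ± 9.31 (SD, n = 2) for homozygous mice, so the 2 homozygous mice differed from each other more than wildtype from heterozygous mice. On the log2 scale the homozygous difference from wildtype was -0.85 (SE 0.31, 95% interval -1.62 to -0.09, unadjusted p = 0.0347, adjusted p = 0.247 in limma). It was the 1 unadjusted p-value under 0.05 among the 6 members in this contrast, where 18% of all tested genes had one, 9.32% with a lower level in homozygous mice. The heterozygous difference was -0.11 (SE 0.31, unadjusted p = 0.739, adjusted p = 0.973 in limma). This SE pools the spread of all 3 genotypes. On the log2 scale the homozygous pair differed by 0.994, the wildtype pair by 0.019 and the heterozygous pair by 0.033. With only heterozygous and wildtype mice in limma, the unadjusted p-value was 0.316 and the adjusted one 0.820.

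The size of the Casp6 difference depended on mouse 47. Without mouse 47 it was -0.35 in the homozygous contrast (adjusted p = 0.404 in limma), and without mouse 49 it was -1.35 (adjusted p = 0.0429), where in each case the remaining homozygous mouse is taken to vary like the other groups. Mouse 47 also stood apart over all tested genes, with a Pearson r of 0.879 to 0.919 with the other mice, which had 0.929 to 0.960 among themselves. Pbsn, a secretory protein of luminal cells, had 257 FPKM in mouse 47 and between 7329 and 11512 in the other 5 mice. The epithelial genes Epcam and Krt8 varied less, with 155 FPKM in mouse 47 against 171 to 239 for Epcam, and 179 against 134 to 189 for Krt8. The summed FPKM of the 9 luminal markers, all above 0 in every mouse, was 13077 and 13461 in wildtype, 10107 and 9628 in heterozygous, and in homozygous mice 1472 and 8638. Most of this sum was Pbsn. The other 8 markers summed to 1885 and 1949, 1747 and 1454, and 1215 and 1309 FPKM in the same order, so that mouse 47 was lowest but near mouse 49. Of the 9 luminal markers, 8 had a negative homozygous difference from wildtype, against 55.0% of all tested genes, with a median log2 difference of -0.47. In limma 0 of the 9 passed, and 4 were lower at an unadjusted p-value under 0.05, against 9.32% of all tested genes. The part of these luminal shifts in the Casp6 result was not tested. The tested genes most like Casp6 over the 6 mice were Pkp4 (Pearson r = 0.998) and Vipr1 (r = 0.997), both also lowest in mouse 47, a description over 6 points chosen from all tested genes. For the other members these genes were Casd1 and Dixdc1 (Casp2), Terf1 and Herpud2 (Casp4), Ccdc17 and Nae1 (Casp8), Agpat3 and Pim3 (Casp9), and Ablim1 and Ncmap (Casp12), with r between 0.971 and 0.995.

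**Figure D2:**
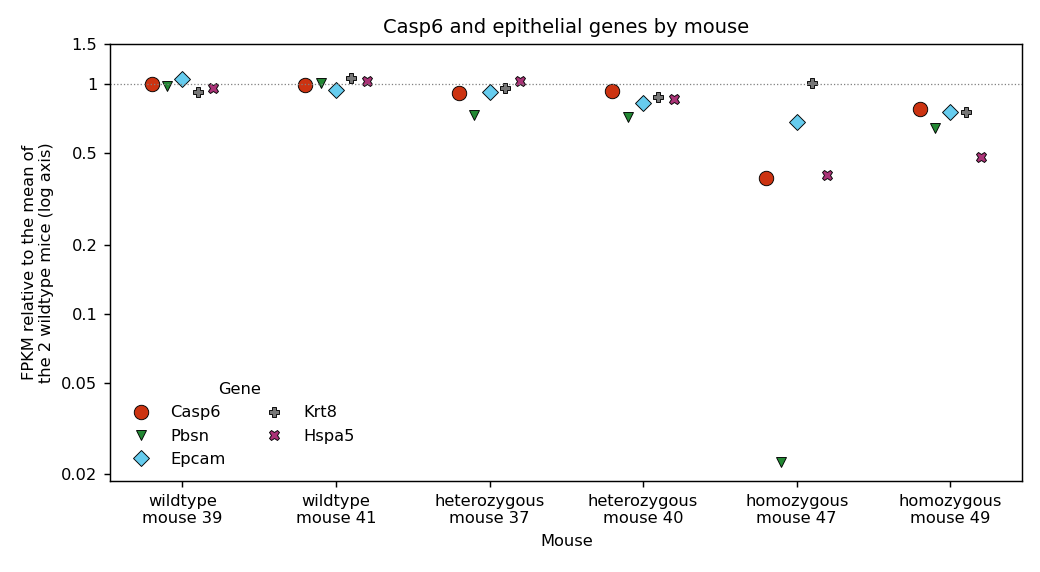
FPKM of Casp6, Pbsn, Epcam, Krt8 and the chaperone gene Hspa5 in each mouse, divided by the mean of the 2 wildtype mice, on a log axis. Each symbol is 1 gene in 1 mouse. In homozygous mouse 47, Casp6 stood at 0.391 of the wildtype mean, Hspa5 at 0.402, Pbsn at 0.0226, Epcam at 0.685 and Krt8 at 1.02.

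Casp8, which is activated at death receptors, had 10.9 and 10.1 FPKM in wildtype, 9.33 and 10.5 in heterozygous, and in homozygous mice 10.8 and 9.59. The 3 genotypes overlapped fully. Its homozygous level was 0.969 times the wildtype level with a 95% interval of 0.773 to 1.22, and the heterozygous level was 0.944 times (0.752 to 1.18), so a change of 1.5-fold in either direction lay outside both intervals. Its pooled SD within genotypes was 0.11 on the log2 scale, and 79.6% of tested genes had a higher one.

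Casp9, which is activated on the apoptosome after cytochrome c leaves the mitochondria, had 9.70 and 7.99 FPKM in wildtype, 8.93 and 7.94 in heterozygous, and in homozygous mice 7.65 and 8.24. Here too the genotypes overlapped. The homozygous level was 0.903 times the wildtype level (95% interval 0.698 to 1.17) and the heterozygous level 0.957 times (0.740 to 1.24), intervals that likewise leave out a 1.5-fold change.

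Casp2, an initiator linked to DNA damage and mitotic faults, had 7.04 and 5.90 FPKM in wildtype, 5.21 and 7.30 in heterozygous, and in homozygous mice 7.59 and 8.41. Both homozygous mice were above the other 4 mice. Against wildtype mice alone, a looser condition, 21.3% of all tested genes had both homozygous mice higher. The share against all 4 mice was not counted. The difference from wildtype was 0.31 on the log2 scale in homozygous mice (SE 0.20, adjusted p = 0.466 in limma) and -0.06 in heterozygous mice (SE 0.20, adjusted p = 0.978). The interval in homozygous mice ran from 0.875-fold to 1.75-fold.

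Casp4 encodes the caspase of mice also known as caspase-11, a sensor of bacterial lipopolysaccharide in the cytosol. Its FPKM was 4.19 and 3.04 in wildtype, 3.12 and 2.74 in heterozygous, and in homozygous mice 2.29 and 3.36, with overlap among all genotypes. The homozygous difference of -0.35 on the log2 scale (SE 0.27, adjusted p = 0.521 in limma) stood beside a pooled SD of 0.30 between mice of a genotype. Casp12 had 3.93 and 3.00 FPKM in wildtype, 3.72 and 3.94 in heterozygous, and in homozygous mice 3.09 and 3.94, and its homozygous difference was 0.02 (SE 0.21, adjusted p = 0.967 in limma). The 95% intervals of these genes in homozygous mice were 0.497-fold to 1.24-fold for Casp4 and 0.706-fold to 1.46-fold for Casp12.

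Casp1 matures interleukin 1 beta and interleukin 18 in the inflammasome. Its FPKM was 0.691 and 0.554 in wildtype, 0.957 and 0.944 in heterozygous, and in homozygous mice 0.814 and 1.00. All 4 mutant mice were above both wildtype mice, as were 9.59% of the 26087 genes above 0 in any mouse. With no filter on low values, limma gave a log2 difference of 0.55 in heterozygous (SE 0.29, adjusted p = 0.866) and 0.48 in homozygous mice (SE 0.29, adjusted p = 0.570), on a scale that understates changes at such levels. Of the 3 neighbours on chromosome 9, Casp1 and Casp12 were lowest in wildtype mouse 41, and Casp4 was lowest in homozygous mouse 47.

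**Figure D3:**
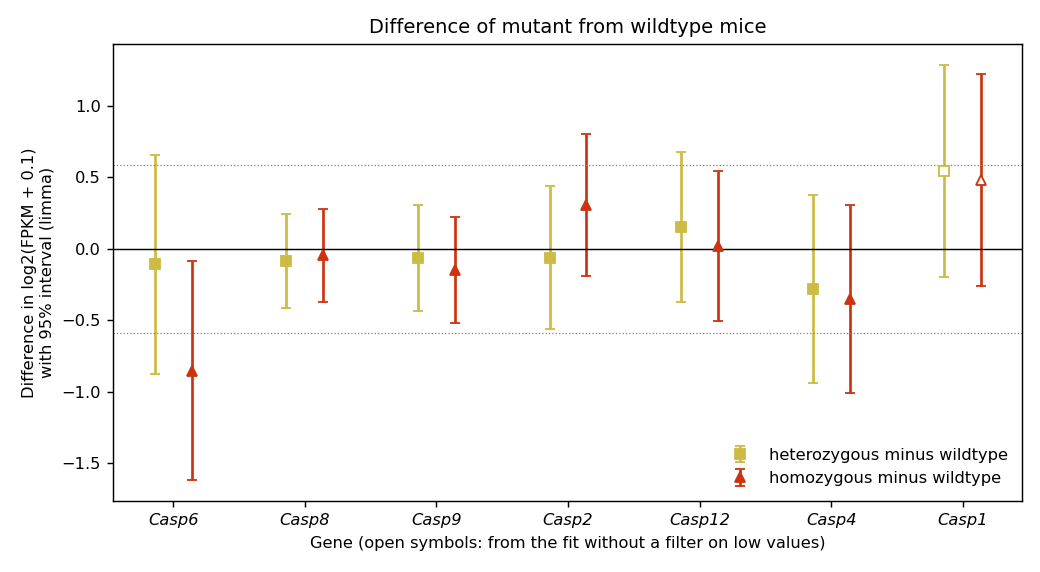
Difference of heterozygous (squares) and homozygous (triangles) from wildtype mice in log2(FPKM + 0.1), with the 95% interval of limma. Dotted lines mark 1.5-fold, and open symbols for Casp1 come from the fit without a filter on low values. The interval of Casp6 in homozygous mice, from -1.62 to -0.09, is the only one drawn that leaves out 0.

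Across the contrasts, 0 of the 6 tested caspases had an adjusted p-value under 0.05 in limma. Between heterozygous and wildtype mice, 0 of 6 passed, as did 0% of all tested genes, and 0 of 6 had an unadjusted p-value under 0.05 against 6.87% of all tested genes. Log2 differences there ran from -0.28 to 0.15 with a median of -0.07, beside -0.01 over all tested genes, and 0 of 6 differed 1.5-fold, against 9.25%. Between homozygous and wildtype mice, 0 of 6 passed against 0.384% of all tested genes. The median log2 difference was -0.10, beside -0.04 over all tested genes, and 1 of 6, Casp6, differed 1.5-fold, against 17.3%. Casp6 was also the only member with both homozygous below both wildtype values, as 28.7% of all tested genes were. Between homozygous and heterozygous mice, 0 of 6 passed against 0.0145%, and 0 of 6 had an unadjusted p-value under 0.05 against 6.39%. The lowest adjusted p of a member there was 0.707, shared by Casp2 and Casp6. The comparisons share the wildtype or mutant mice and are not independent.

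Known p53 targets marked the genotypes in the same libraries. Cdkn1a, which encodes the cell cycle inhibitor p21, had 109 and 101 FPKM in wildtype, 40.5 and 41.4 in heterozygous, and in homozygous mice 6.70 and 6.17. Its homozygous difference was -4.00 on the log2 scale (SE 0.11, adjusted p = 0.00075 in limma). Bax, a pore-forming protein of the mitochondrial route upstream of Casp9, fell by 1.93 (adjusted p = 0.0207), and Mdm2, the ubiquitin ligase of p53, fell by 1.30 (adjusted p = 0.0399). Of 9 tested p53 targets, 8 fell in homozygous mice at an adjusted p-value under 0.05, the largest fall being 4.21 in Eda2r, while Perp had -0.58 (adjusted p = 0.219). These genes were listed with their response in these mice known, so their count is no independent evidence of direction.

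Within the lists of death receptors and adaptors, PIDDosome genes and mitochondrial factors, 1 gene passed in homozygous mice, Tnfrsf10b. These lists share no gene with the list of p53 targets above. Tnfrsf10b is nevertheless a p53 target itself, since the paper counts it among the known targets of wildtype p53. Whether other genes of these lists are p53 targets too was not examined. Tnfrsf10b, the death receptor for TRAIL upstream of Casp8, had 6.26 and 5.07 FPKM in wildtype, 1.89 and 2.31 in heterozygous, and in homozygous mice 1.19 and 1.05. It fell by 2.24 on the log2 scale in homozygous mice (SE 0.22, adjusted p = 0.0369 in limma). It was the 1 of 10 tested death receptors and adaptors to pass, against 0.384% of all tested genes. Tnfsf10, which encodes TRAIL, had a homozygous difference of 0.80 (adjusted p = 0.289) and Tnfrsf21, another death receptor, 0.61 (adjusted p = 0.294). Pidd1, which forms the platform for Casp2, had 2.09 and 1.97 FPKM in wildtype, 1.05 and 1.01 in heterozygous, and in homozygous mice 0.961 and 1.10, with no overlap between wildtype and mutant mice. The share of genes with all 4 mutant mice lower was not counted, and 28.7% of all tested genes had both homozygous below both wildtype mice. Pidd1 had a difference of -0.91 in either contrast with wildtype (adjusted p = 0.547 in heterozygous and 0.205 in homozygous mice in limma). Its partner Cradd had -0.22 in homozygous mice (adjusted p = 0.570). Apaf1, the scaffold of the apoptosome that activates Casp9, had 6.32 and 7.03 FPKM in wildtype, 7.85 and 4.21 in heterozygous, and in homozygous mice 2.58 and 3.73, a homozygous difference of -1.08 (SE 0.33, adjusted p = 0.208). The mitochondrial protease Htra2 had a difference of 0.67 (adjusted p = 0.264), with 24.9 FPKM in mouse 47 against 11.8 to 14.3 in the others, and Cycs, which encodes cytochrome c, had 0.38 (adjusted p = 0.274). In limma, 0 of the 6 tested mitochondrial factors passed, with 2 higher and 1 lower at an unadjusted p-value under 0.05. Of the 2 PIDDosome genes 0 passed, with 1 lower at that level, which 18% of all tested genes reached in either direction.

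**Figure D4:**
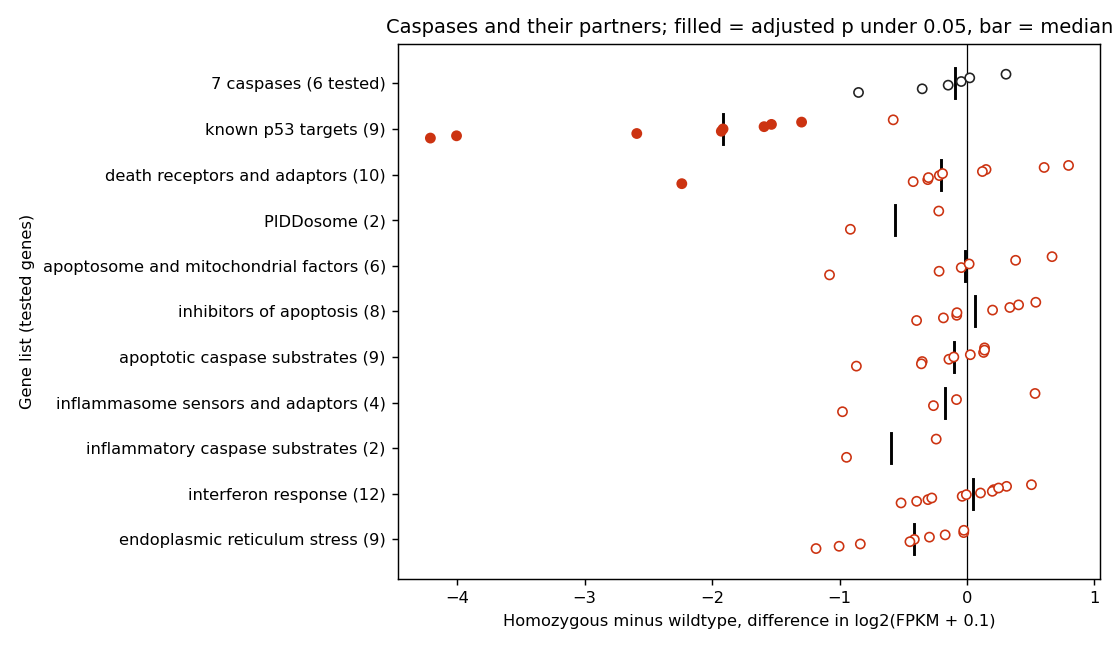
Homozygous minus wildtype difference in log2(FPKM + 0.1) for each tested caspase and each tested gene of 10 lists, 1 circle per gene, filled where limma's adjusted p-value was under 0.05, with a bar at the median of the list. The number in brackets is the number of tested genes. The 6 caspases lie between -0.85 and 0.31, while the genes of the p53 target list lie between -4.21 and -0.58.

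Of 8 tested inhibitors of apoptosis and 9 tested substrates of apoptotic caspases, 0 passed in limma in homozygous mice, against 0.384% of all tested genes. The unadjusted p-value was under 0.05 for 0 of the inhibitors and 1 of the substrates, against 18% of all tested genes. Of the 8 inhibitors, 4 had a positive and 4 a negative homozygous difference, with a median log2 difference of 0.06. Naip6 had the largest difference, 0.54 (adjusted p = 0.628 in limma), and its values of 16.6 and 6.37 FPKM in wildtype mice spanned most of its range. Naip genes are close copies of each other, so their reads may be split between them. Naip5 had 0.41 (adjusted p = 0.518) and Birc3 -0.40 (adjusted p = 0.416). Among the substrates, Lmna, whose lamin product is cut by caspase-6, had 97.2 and 95.4 FPKM in wildtype, 83.6 and 71.3 in heterozygous, and in homozygous mice 51.4 and 54.1. Its values were ordered by allele number, with a homozygous difference of -0.87 (SE 0.13, adjusted p = 0.0785). Krt18 had -0.36 (adjusted p = 0.336) and Dffb, the nuclease of DNA laddering, -0.35 (adjusted p = 0.383).

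The partners of the inflammatory caspases were sparse. Only 4 of 10 inflammasome sensors and adaptors and 2 of 5 substrates reached the level needed for the test. In homozygous mice 0 of these 6 passed in limma, against 0.384% of all tested genes. The unadjusted p-value was under 0.05 for 0 of them, against 18% of all tested genes. Nlrp3, the best known sensor upstream of Casp1, had between 0.0714 and 0.19 FPKM. Pycard, the adaptor that recruits Casp1, had a homozygous difference of 0.53 (adjusted p = 0.350 in limma), Aim2, a DNA sensor, -0.98 (adjusted p = 0.345) and Gbp2 -0.26 (adjusted p = 0.705). Il18 had -0.95 (adjusted p = 0.280) and Gsdmd, the pore protein cut by Casp1 and Casp4, -0.24 (adjusted p = 0.621). Of 12 interferon response genes, 0 passed in homozygous mice and 1 had an unadjusted p-value under 0.05, again against 18% of all tested genes. Their median difference was 0.05. The largest were in Mx1 (-0.52, adjusted p = 0.242 in limma), Oas1a (0.51, adjusted p = 0.599) and Irf8 (-0.39, adjusted p = 0.431).

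Casp12 lies at the endoplasmic reticulum. Of 9 tested genes linked to stress of this organelle, 9 had a negative homozygous difference, with a median of -0.41. Those of Ern1 (-0.024) and Xbp1 (-0.026) were near 0. Over all tested genes 55.0% had a negative difference and the median was -0.04. In limma 0 of the 9 passed, with 3 at an unadjusted p-value under 0.05, against 18% of all tested genes. The chaperone Hspa5 had a log2 difference of -1.18 (adjusted p = 0.111 in limma), and Atf6, a sensor of unfolded proteins, had -0.84 (adjusted p = 0.338), while Casp12 had 0.02. The chaperone Hsp90b1 stood at 0.499 times its wildtype level (adjusted p = 0.153 in limma).

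Markers of the cell types that the gland can hold gave the following levels beside these results. The 10 macrophage markers, which bear on Casp1 and Casp4, were all above 0 in every mouse, and their summed FPKM was 180 and 176 in wildtype, 273 and 233 in heterozygous, and in homozygous mice 108 and 274. Casp4 was likewise lowest in mouse 47, while Casp1 was not, and the part of these cells in either result was not tested. The 6 neutrophil markers were near 0, with summed FPKM of 9.05 and 2.48 in wildtype mice and 0.784 to 1.98 in the 4 mutant mice, and Mpo was listed at 0 in every mouse. The 10 lymphocyte markers summed to 12.5 FPKM in mouse 47 and to 95.7 to 161 in the other mice, mostly from Ighm. Fibroblast markers summed to 298 FPKM in mouse 47 and 401 to 683 in the others, basal markers to between 124 and 186, smooth muscle markers to between 1553 and 2383, and adipocyte markers to between 158 and 413. The 5 endothelial markers summed to 24.5 and 30.1 FPKM in wildtype mice and to 33.7 to 41.9 in the 4 mutant mice, and so, like Casp1, lay higher in all 4. The 7 skeletal muscle markers summed to 1319 and 1988 FPKM in wildtype mice and to 3773 to 4567 in the 4 mutant mice, so they too lay higher in all 4. Of single genes above 0 in any mouse, 9.59% had all 4 mutant mice higher. The seminal vesicle markers summed to 3354 FPKM in wildtype mouse 39 and to 30236 to 53400 in the others, with Svs2 listed at 0 in both homozygous mice and Svs4 and Svs5 at 0 in mouse 47. The 5 markers had a median homozygous difference of -6.97 on the log2 scale, and 1 of them, Svs2, was lower at an adjusted p of 0.0477 in limma, values that rest on these zeros. Luminal, macrophage, lymphocyte, neutrophil, fibroblast, endothelial, skeletal muscle and seminal vesicle levels, among others, moved with genotype or with single mice. Their part in the caspase values was not tested.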

How the data were processed

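RNA from 6 irradiated mouse prostates was sequenced as stranded mRNA libraries. The authors aligned the reads to GRCm38 (mm10) with HISAT and deposited gene-level FPKM per mouse from Cufflinks. The submitters' processing notes also name Cuffnorm, and versions and annotation are not given in the sources used here. Fragment counts are not analysed here, so the counting error of a value is unknown. From the spacing of FPKM values under 0.1, the number of fragments relative to mouse 39 lay between 0.785 in mouse 47 and 1.07 in mouse 49, and deposited FPKM summed to between 518671 and 636407 per mouse.

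Genes whose mean FPKM reached 1 (13818) were tested on log2(FPKM + 0.1). One limma model held all 3 genotypes (limma 3.58.1, R 4.3.3, eBayes with an intensity trend, 3 residual and 2.77 prior degrees of freedom), with Benjamini-Hochberg adjustment over all tested genes and a threshold of 0.05. This model was first tested on simulated data. With 2 mice against 2, an exact permutation test of 1 gene cannot give a two-sided p-value below 0.333, so none was run. Each mouse counts as 1 replicate, and the labels name no litter or batch. Positions are from GENCODE M21, which holds 47219 of the 47719 identifiers, and promoter windows from RefSeq. Python 3.11.15 was used for the other steps.

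The caspases and the lists of partner and marker genes were chosen with earlier results of these data known. Named genes were the 7 members, list genes with an adjusted p-value under 0.05, the 3 largest homozygous differences of each list, Cdkn1a, Bax and Mdm2, and the 2 genes most like a member by Pearson's r. Other genes named for their levels were chosen after their values were seen. Some genes that this rule would name are not reported here. Where a symbol had several identifiers, the one with the highest mean FPKM was used.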

Additional observations from a re-analysis of the deposited data

How the results depend on the processing

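With 2 mice per genotype, intervals are wide, and 1 mouse decides several values. FPKM carries no counting error, which limits Casp1 most. No tested caspase passed at an adjusted p-value under 0.05 in any setting run except Casp6 in homozygous against wildtype mice without mouse 49 (-1.35, adjusted p = 0.0429 in limma). That count was 0 to 1 when mice were left out in turn, and the Casp6 difference ran from -1.35 to -0.35. Its unadjusted p-value was not under 0.05 with quantile normalization, without the trend, with only the homozygous and wildtype mice, or without either wildtype or either heterozygous mouse. With quantile normalization 0 caspases were ordered by allele number, and Casp12 in homozygous mice changed sign to -0.093. The causes were not tested.

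Among all tested genes, the count in homozygous against wildtype mice was 53, and it was 4 with no filter, 23 without the trend and 2 with only these mice. In homozygous against heterozygous mice it was 2, and 1 with a pseudocount of 0.01 or a mean FPKM of at least 5. In heterozygous against wildtype mice it was 0, and 1 with only these mice. The F-test count was 14, and it was 3 with no filter, 4 with quantile normalization, 9 without the trend, 49 with allele number as 1 numeric term and 0 with an F-test on each gene alone, where 1649 of 19130 genes had an unadjusted p-value under 0.05.

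Leaving out mice in turn gave 0 to 1 genes in heterozygous against wildtype, 4 to 96 in homozygous against wildtype and 0 to 40 in homozygous against heterozygous mice. The homozygous against wildtype count was 11 without mouse 39, 4 without mouse 37, 5 without mouse 40, 8 without mouse 47 and 96 without mouse 49. The F-test gave 0 to 9 genes. Allele order held for 1 to 2 caspases, 2 without mouse 37, and for 1963 to 2980 genes.

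Small differences changed sign with the mouse left out. Against wildtype, heterozygous values ran from -0.30 to 0.18 for Casp2, -0.17 to 0.00037 for Casp8, -0.20 to 0.075 for Casp9 and -0.036 to 0.34 for Casp12. Homozygous values ran from -0.13 to 0.038 for Casp8 and -0.17 to 0.21 for Casp12. Homozygous against heterozygous values ran from -0.34 to 0.20 for Casp4, -0.045 to 0.12 for Casp8 and -0.30 to 0.039 for Casp12.

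No paired analysis was run because the labels name no litter, batch or pairing of mice.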
